A study of Mus musculus with 8 samples.

Results

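Il12b encodes the p40 subunit shared by the cytokines IL-12 and IL-23, and its chromatin was examined here through the 12 ATAC-seq peaks that lie on chromosome 11 between 44165000 and 44235000 of build mm9. These peaks are defined by their position, among 74207 peaks in the deposited table, and 12 of the 12 passed the filter on low values that left 66786 peaks for testing. Il12b lies on the plus strand at approximately 44213000 to 44228000, a rounded span that came with the definition of the window, and each peak is called here by the distance of its centre from 44213000. With these bounds 9 peaks were upstream of the gene, 1 lay inside it, 1 began just past its 3′ end and 1 lay farther downstream. No mm9 annotation was used, so exons, introns and UTRs were not assigned.

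Macrophages make p40 when Toll-like receptors sense microbial products, and p40 then pairs with p35 (Il12a) to form IL-12 or with p19 (Il23a) to form IL-23, cytokines that direct T cell responses. Transcription of Il12b in activated macrophages is known to depend on NF-κB proteins such as c-Rel, on C/EBP and AP-1 factors, on remodelling of a nucleosome at the promoter, and on a nuclease-hypersensitive enhancer in the upstream region. In ATAC-seq the Tn5 transposase inserts adapters into accessible DNA, so a peak with more reads was more open across the cells, and more cells with an open site cannot be told apart from a wider opening in each cell.

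The libraries came from bone marrow-derived macrophages of wild-type (WT) C57Bl/6 mice grown in CMG medium with serum, 1 library per mouse and treatment. Cells received fenoterol, a β2 adrenergic receptor agonist, at 1 µM for 15 min and then LPS at 100 ng/mL for 1 h (fenoterol + LPS), LPS alone at the same dose and time (LPS), fenoterol alone for 15 min (fenoterol), or no stimulus (unstimulated), with n = 2 mice in each of the 4 groups. The fenoterol cells thus had no further hour in culture with LPS, and time since the agonist differs between the groups that received it. The table names no genes, so the labelled cell type was not checked against markers. Depth, counted as reads in peaks, was 3164446 to 4040292 in 7 libraries and 1426873 in 1, that from unstimulated cells of mouse 1. At the 12 peaks the recovered reads ran from 2 to 36 in that shallow library and from 5 to 282 in the others. A count of 2 reads has an exact 95% Poisson interval of 0.242 to 7.23 and one of 254 reads an interval of 224 to 287, for counting error only.

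The Il12b promoter window of RefSeq on build GRCm38.p6, chr11:44399813-44400112, plus strand, is shown because the peak nearest the gene start was among those that rose with LPS. It runs from 250 bases before the start to 50 bases after it. Its place on mm9 was not determined, so how far the nearest peak covers it was not tested. Capitals mark the 3 motif matches described next.
Il12b promoter: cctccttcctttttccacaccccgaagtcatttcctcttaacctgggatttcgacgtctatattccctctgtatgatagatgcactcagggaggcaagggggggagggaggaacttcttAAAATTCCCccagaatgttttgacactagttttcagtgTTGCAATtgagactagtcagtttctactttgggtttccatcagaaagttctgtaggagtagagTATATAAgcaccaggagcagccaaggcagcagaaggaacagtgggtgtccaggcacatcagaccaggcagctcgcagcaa
None of the 7 listed motifs, searched on both strands, had a match in this window. They were the NF-κB consensus, TTGCNNAA for C/EBP, TGANTCA for AP-1, TGACGTCA for the cyclic AMP response element, GAGGAAGT for an ETS core, TATAAA for a TATA box and ATGCAAAT for the octamer. These motifs were present in 50.8%, 10.8%, 7.81%, 1.79%, 3.2%, 13.6% and 1.74% of 32851 RefSeq promoter windows, in the same order. After the letters had been read, 3 other forms seen in them were searched, and each had 1 match. These matches were known before the search, so the shares of windows given with them describe the forms and test nothing about this promoter. GGGAATTTT, a form of the Rel half-site known from this promoter, matched on the minus strand at bases -131 to -123 from the start and was present in 0.31% of all windows. TTGCAAT, a C/EBP half-site form, matched on the plus strand at -93 to -87 and was present in 2.22%. TATATAA matched on the plus strand at -30 to -24 and was present in 3.24%. The 3 matches do not overlap. The matched forms describe the letters only, and binding was not measured. In the GRCm38.p6 annotation the nearest protein-coding genes are Adra1b, an α1 adrenergic receptor, on the upstream side and Ublcp1, a ubiquitin-like domain phosphatase, on the downstream side.

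Accessibility values are the authors' RPKM, reads normalised to the length of the peak and to the library's reads in peaks, divided here by a size factor per library. They can be compared between peaks because they are per length. In unstimulated macrophages the tallest of the 12 peaks by mean was the one 15.5 kb downstream, at 40.5 ± 7.42 RPKM (SD, n = 2), followed by those 21.4 kb upstream at 33.7 ± 8.08 RPKM and 9.2 kb upstream at 32.5 ± 2.11 RPKM. The mean ± SD ranges of these 3 overlap. The lowest were the peaks 30.1 kb upstream, at 4.45 ± 0.791 RPKM, and 17.1 kb upstream, at 6.32 ± 0.544 RPKM. With LPS the order changed: the peak 9.2 kb upstream was tallest at 93.2 ± 4.81 RPKM and the peak 0.5 kb upstream came next at 52.8 ± 5.01 RPKM, apart from each other by more than the spread. The peak 21.4 kb upstream followed at 45.9 ± 5.92 RPKM, within the spread of the peak before it.

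**Figure D1:**
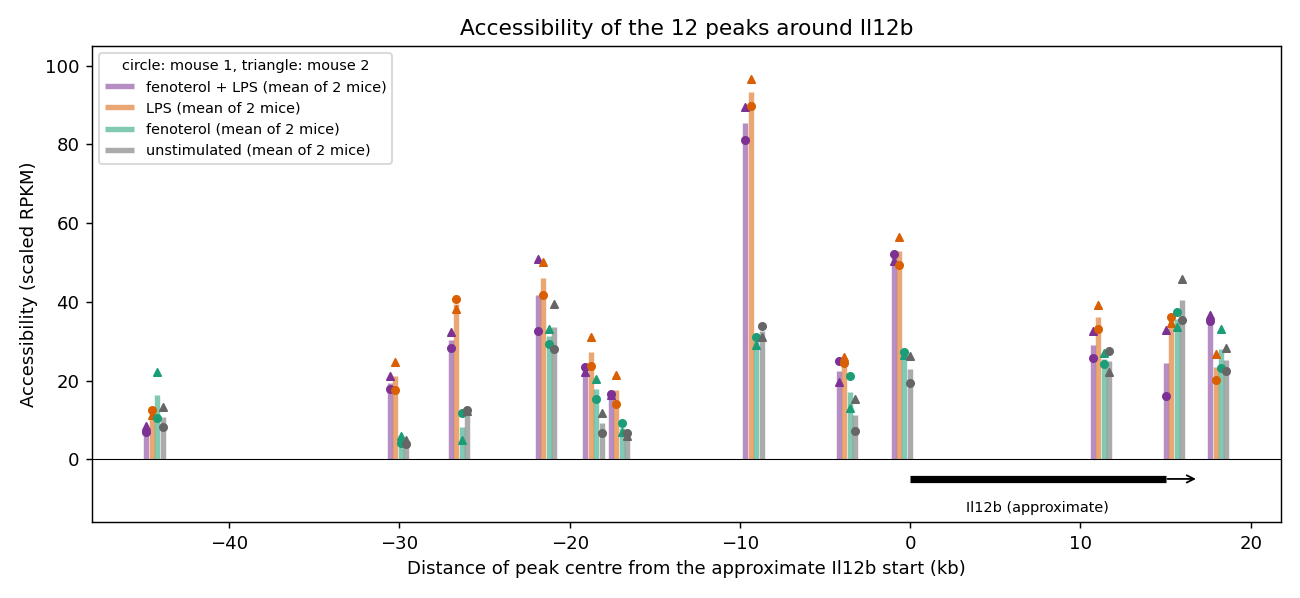
Mean accessibility (scaled RPKM, bars) of the 12 peaks in the 4 groups against the distance of the peak centre from the approximate Il12b start (kb), with the groups of a peak drawn side by side, each mouse as a point and the approximate gene as a black bar. The peak 9.2 kb upstream stands highest with fenoterol + LPS (85.3 RPKM) and LPS (93.2 RPKM), against 29.9 RPKM with fenoterol and 32.5 RPKM unstimulated.

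With LPS for 1 h, peaks upstream of Il12b became more accessible. Of the 12 peaks, 7 rose against unstimulated cells and 0 fell (limma-trend, Benjamini-Hochberg adjusted p under 0.05 over all 66786 peaks), where 6.53% of all tested peaks rose and 3.54% fell. The 7 were the peaks 30.1, 26.5, 18.6, 17.1, 9.2, 3.7 and 0.5 kb upstream of the start. The other 2 upstream peaks and the 3 peaks inside or downstream of the gene did not pass. The median log2 difference over the 12 peaks was 1.02, with a range of -0.17 to 1.57, and that over all tested peaks was -0.03. Differences are of log2(RPKM + 4), which at low peaks makes them smaller than the log2 ratio of the levels. In the fit without the LPS library of mouse 2 the count was 3, namely the peaks 26.5, 9.2 and 0.5 kb upstream.

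The smallest adjusted p was at the peak 9.2 kb upstream, 792 bp wide at 44203376 to 44204167. It had 89.8 RPKM in mouse 1 and 96.6 RPKM in mouse 2 with LPS, against 34.0 and 31.0 RPKM in the unstimulated libraries. Both LPS values were well above both unstimulated ones, and the ratio of the means was 2.87. The log2 difference was 1.41 (SE 0.13, 95% interval 1.14 to 1.69, adjusted p = 2.42e-06), which ranked 25 of 66786 by p.

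The peak nearest to the approximate gene start lay 0.5 kb upstream of it, at 44212213 to 44212833. It had 49.3 and 56.4 RPKM with LPS, against 19.3 and 26.4 RPKM unstimulated. The groups did not overlap, and both LPS values lay above both unstimulated ones at 23.5% of all tested peaks. The log2 difference at the peak 0.5 kb upstream was 1.09 (SE 0.15, adjusted p = 0.000101) and the ratio of the means was 2.32. The neighbouring peak 3.7 kb upstream, at 44209164 to 44209477, had 24.4 and 25.97 RPKM with LPS, against 7.15 and 15.4 RPKM unstimulated, the first of these from 3 reads with an exact 95% Poisson interval of 0.619 to 8.77. It rose by 0.99 on the log2 scale (SE 0.26, adjusted p = 0.0186). This call was lost by limma voom on recovered reads (adjusted p = 0.0889; 0.115 with the mouse as a block), without a mean trend in the fit (0.0812) and without either LPS library (0.0984 for mouse 1 and 0.146 for mouse 2) or the unstimulated library of mouse 1 (0.175).

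Farther upstream, the peak 26.5 kb from the start at 44186268 to 44186802 had 40.8 and 38.1 RPKM with LPS, against 12.6 and 12.2 RPKM unstimulated. The mice differed little in either group, and the log2 difference was 1.41 (SE 0.24, adjusted p = 0.000657). The peak 30.1 kb upstream, at 44182735 to 44183119, had 17.7 and 24.7 RPKM with LPS, against 3.89 and 5.01 RPKM unstimulated, the unstimulated values resting on 2 and 8 reads. It had the lowest unstimulated mean of the 12 peaks, and its ratio of means was 4.76, with a log2 difference of 1.57 (SE 0.31, adjusted p = 0.00278). Without the LPS library of mouse 2 the adjusted p was 0.0963.

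Other peaks that rose lay between these and the 9.2 kb peak. At the peak 18.6 kb upstream, 228 bp wide at 44194289 to 44194516, the LPS libraries had 23.7 and 31.0 RPKM, against 6.58 and 11.6 RPKM in the unstimulated ones, with 2 reads behind the first of the unstimulated values. It rose by 1.28 on the log2 scale (SE 0.24, adjusted p = 0.00151, or 0.0603 without the LPS library of mouse 2). The peak 17.1 kb upstream, at 44195644 to 44196089, had 14.0 and 21.3 RPKM with LPS, against 6.71 and 5.94 RPKM unstimulated. It rose by 1.05 on the log2 scale (SE 0.30, adjusted p = 0.0312), the largest adjusted p of the 7. It missed the threshold after quantile normalization (0.0549), without either fenoterol + LPS library (0.0587 for mouse 1 and 0.058 for mouse 2), without either LPS library (0.0681 and 0.337) and without the unstimulated library of mouse 1 (0.0506).

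The remaining 5 peaks did not pass in this comparison. The peak 21.4 kb upstream, at 44191394 to 44191821, was already accessible in unstimulated cells and had 41.7 and 50.1 RPKM with LPS, against 28.0 and 39.4 RPKM without (log2 difference 0.42, SE 0.18, adjusted p = 0.162). The peak 11.2 kb downstream of the start, inside the approximate gene, had 33.1 and 39.2 RPKM with LPS, against 27.6 and 22.2 RPKM unstimulated (log2 difference 0.48, SE 0.17, adjusted p = 0.0768). At the peaks 44.4 kb upstream and 15.5 and 18.1 kb downstream the log2 differences were 0.12, -0.17 and -0.10, with adjusted p of 0.864, 0.675 and 0.784. The 95% interval at the most distal of these, 44.4 kb upstream, ran from -0.57 to 0.81, so a change of moderate size was not detectable there.

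**Figure D2:**
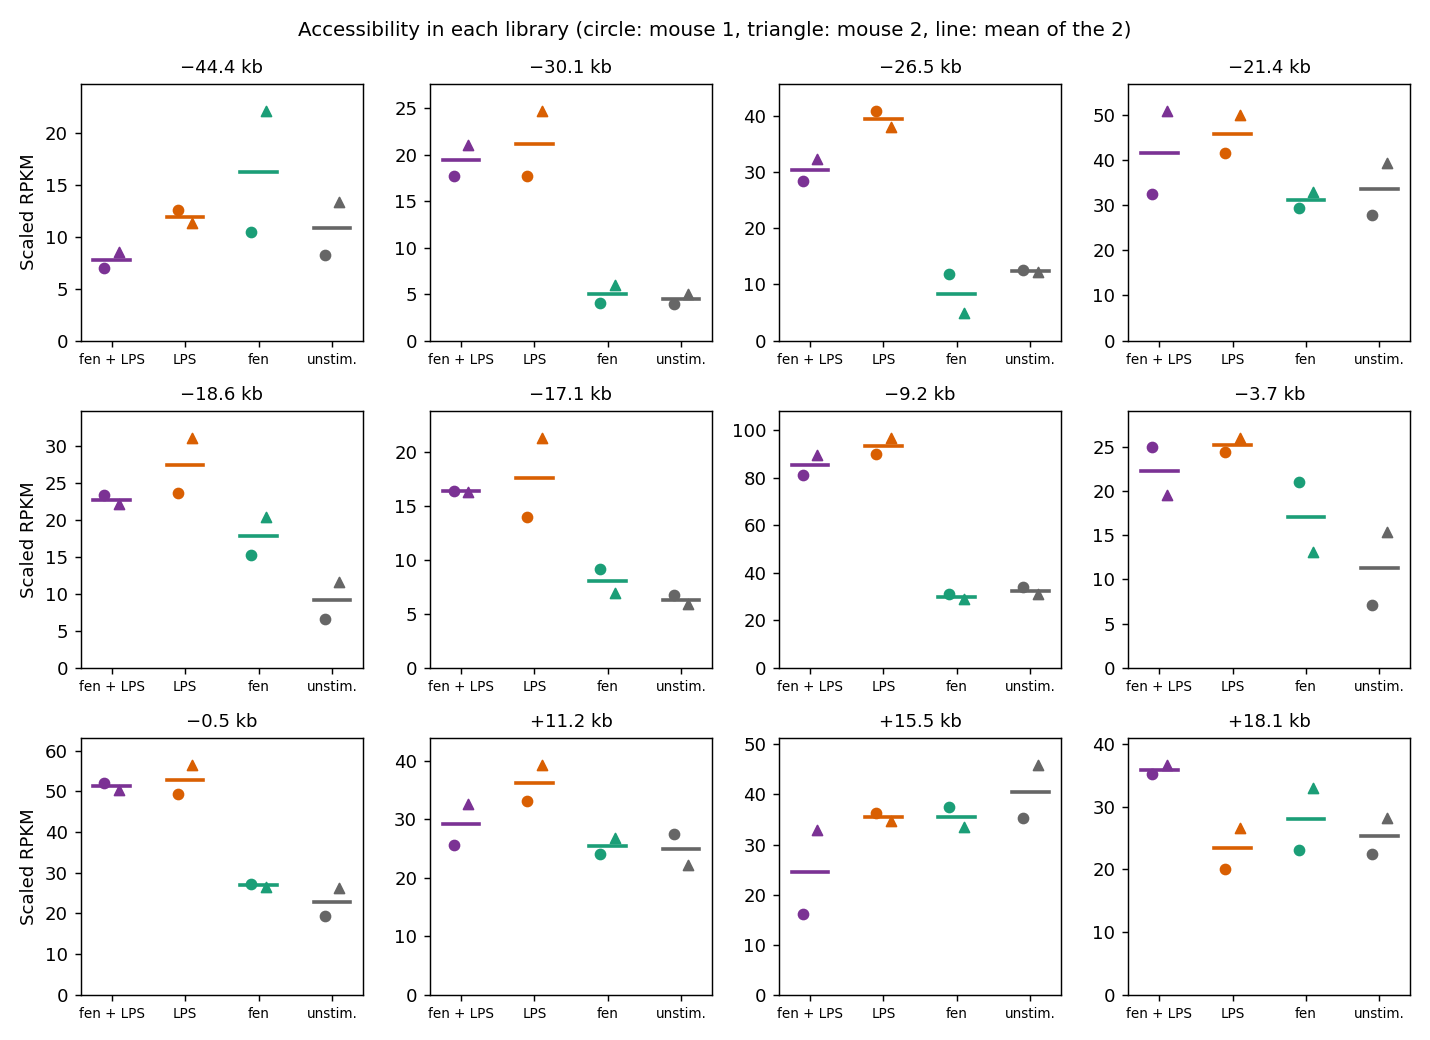
Scaled RPKM in each of the 8 libraries for the 12 peaks, with groups on the x axis (fen, fenoterol; unstim., unstimulated), each mouse as a point and a line at the mean of the 2 mice. At 6 peaks, those 30.1, 26.5, 18.6, 17.1, 9.2 and 0.5 kb upstream, the 4 libraries with LPS lie above the 4 without.

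In cells given fenoterol first, peaks upstream of Il12b again rose with LPS. The fenoterol + LPS cells also had 1 h more after the agonist than the fenoterol cells, and that time cannot be told apart from LPS. Against fenoterol alone, 4 of the 12 peaks rose with fenoterol + LPS and 0 fell, where 9.43% of all tested peaks rose and 4.32% fell. The 4 were the peaks 30.1, 26.5, 9.2 and 0.5 kb upstream, each of which had also risen with LPS alone. The group means of these comparisons share no library, although the spread was estimated from all 8. The median log2 difference over the 12 peaks was 0.34, against -0.03 over all tested peaks.

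The peak 9.2 kb upstream had 81.1 and 89.5 RPKM with fenoterol + LPS, against 30.9 and 28.9 RPKM with fenoterol. Its log2 difference of 1.40 (SE 0.13, adjusted p = 1.29e-06) lay beside 1.41 without fenoterol, and the interaction was -0.02 with a 95% interval of -0.41 to 0.37 (adjusted p = 0.997). The peak 0.5 kb upstream had 52.2 and 50.4 RPKM with fenoterol + LPS, against 27.3 and 26.5 RPKM with fenoterol. The mice were close in both groups, and the log2 difference was 0.84 (SE 0.15, adjusted p = 0.000783). At the peak 26.5 kb upstream the values were 28.4 and 32.4 RPKM with fenoterol + LPS, against 11.8 and 4.81 RPKM with fenoterol, a log2 difference of 1.54 (SE 0.24, adjusted p = 0.000188). The peak 30.1 kb upstream had 17.8 and 21.0 RPKM with fenoterol + LPS, against 4.08 and 6.02 RPKM with fenoterol (log2 difference 1.38, SE 0.31, adjusted p = 0.00523). That last call was lost when mouse 2 was left out of the fenoterol + LPS group (0.0922) or mouse 1 out of the fenoterol group (0.0595).

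The other 3 peaks that rose with LPS alone missed the threshold here. The peak 17.1 kb upstream had 16.5 and 16.3 RPKM with fenoterol + LPS, against 9.17 and 6.93 RPKM with fenoterol (log2 difference 0.76, SE 0.30, adjusted p = 0.105). At the peak 18.6 kb upstream the values were 23.4 and 22.1 RPKM with fenoterol + LPS, against 15.2 and 20.4 RPKM with fenoterol (log2 difference 0.31, SE 0.24, adjusted p = 0.464). The peak 3.7 kb upstream had 25.02 and 19.6 RPKM with fenoterol + LPS, against 21.1 and 13.1 RPKM with fenoterol (log2 difference 0.34, SE 0.26, adjusted p = 0.46). All 3 peaks had higher means with fenoterol alone than in unstimulated cells, as did those 30.1 and 0.5 kb upstream, which passed. The ratios of the means were 1.95, 1.52 and 1.27 at the peaks 18.6, 3.7 and 17.1 kb upstream. They were 1.14 and 1.18 at those 30.1 and 0.5 kb upstream, and 0.67 and 0.92 at those 26.5 and 9.2 kb upstream. At the peak 3.7 kb upstream the mice were split. Mouse 1 had 21.1 RPKM with fenoterol against 7.15 RPKM unstimulated, the latter from 3 reads, and mouse 2 had 13.1 against 15.4 RPKM. Whether the LPS effect differed with fenoterol was tested as an interaction, which also holds the 1 h of added time after the agonist. No peak of the 12 passed it (smallest adjusted p = 0.681, 18.6 kb upstream), and 1 of the 12 had an unadjusted p under 0.05. By limma-trend 0% of all tested peaks passed it either, where 4225 had an unadjusted p under 0.05 and 4 passed by voom (0.00599%).

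Voom on recovered reads called 7 of the 12 peaks in fenoterol + LPS against fenoterol, of which 5 rose and 2 fell, where 12.1% of tested peaks rose and 7.12% fell by that test. The additional rise was at the peak 17.1 kb upstream (adjusted p = 0.0157). The falls were at the peaks 44.4 kb upstream (0.0442 by voom, 0.165 by limma-trend) and 15.5 kb downstream (0.00411 by voom, 0.0924 by limma-trend). The first of these had 6.999 and 8.494 RPKM with fenoterol + LPS, against 10.4 and 22.1 RPKM with fenoterol, from 10 to 31 reads per library. Limma-trend called the first fall after quantile normalization (0.0448). Its log2 difference of -0.73 became -0.30 when mouse 2 was dropped from the fenoterol group and -1.15 when mouse 1 was dropped. The second peak had 16.2 and 33.0 RPKM with fenoterol + LPS, against 37.5 and 33.6 RPKM with fenoterol. Its difference of -0.53 shrank to -0.09 when mouse 1 was dropped from the fenoterol + LPS group. It became -0.97 when mouse 2 was dropped instead, a fit in which the low value stands alone in its group. The size of each fall thus depended on single libraries.

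Averaged over both fenoterol states, so that 4 libraries with LPS were set against 4 without, 8 of the 12 peaks rose and 0 fell by limma-trend, where 13.3% of tested peaks rose and 10.1% fell. By voom 1 of the 12 fell, where 12.9% of tested peaks fell. It was the peak 15.5 kb downstream, with 16.2 and 33.0 RPKM under fenoterol + LPS and 36.2 and 34.7 RPKM under LPS, against 37.5 and 33.6 RPKM with fenoterol and 35.3 and 45.8 RPKM unstimulated. Its average log2 difference was -0.44 by voom (adjusted p = 0.003; 0.00311 with the mouse as a block) and -0.35 by limma-trend (adjusted p = 0.0876). Limma-trend called this fall without the fenoterol + LPS library of mouse 2 (0.00427) or the unstimulated library of mouse 1 (0.0362). With mouse 1 left out of the fenoterol + LPS group, the difference was -0.13 (0.553). The additional peak that rose was the one 21.4 kb upstream, with 32.5 and 50.9 RPKM with fenoterol + LPS and 41.7 and 50.1 RPKM with LPS, against 29.4 and 33.1 RPKM with fenoterol and 28.0 and 39.4 RPKM unstimulated. These values overlap between libraries with and without LPS, and the average log2 difference was 0.38 (SE 0.13, adjusted p = 0.0358). The call was lost without a mean trend in the fit (0.16) and without any 1 of 5 libraries: fenoterol + LPS of mouse 2 (0.248), LPS of mouse 2 (0.154), fenoterol of mouse 1 (0.128) or mouse 2 (0.0535) and unstimulated of mouse 1 (0.117). The average at the peak 3.7 kb upstream, 0.66 (adjusted p = 0.012), was likewise lost without the fenoterol + LPS library of mouse 1 (0.0711), the LPS library of mouse 2 (0.0516), the fenoterol library of mouse 2 (0.0671) or a mean trend (0.0521). The 4 libraries with LPS lay above all 4 without it at 6 of the 12 peaks, against 12.3% of tested peaks.

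When fenoterol was given before LPS, no difference from LPS alone passed the test at the Il12b peaks. By limma-trend 0 of the 12 peaks rose and 0 fell in fenoterol + LPS against LPS, and 0% of all tested peaks passed, with 2 of the 12 and 4447 of all tested peaks at an unadjusted p under 0.05. By voom 0.602% of all tested peaks passed and 0 of the 12. The median log2 difference over the 12 was -0.15, against -0.01 over all tested peaks. At the peak 9.2 kb upstream, with 81.1 and 89.5 RPKM under fenoterol + LPS and 89.8 and 96.6 RPKM under LPS, the log2 difference was -0.12 with a 95% interval of -0.40 to 0.16 (adjusted p = 0.95). At the peak 0.5 kb upstream, with 52.2 and 50.4 RPKM against 49.3 and 56.4 RPKM in the same order, it was -0.04 with an interval of -0.35 to 0.28 (adjusted p = 0.989). Neither interval holds a difference as large as the rise with LPS at the same peak. They are wider at the lower peaks 30.1 and 26.5 kb upstream, at -0.75 to 0.56 and -0.84 to 0.16.

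Both fenoterol + LPS values lay below both LPS values at 6 of the 12 peaks, against 20.9% of tested peaks, and above them at 1, against 20.7%. The 6 were the peaks 44.4, 26.5, 18.6 and 9.2 kb upstream and 11.2 and 15.5 kb downstream. The exception was the peak 18.1 kb downstream, at 44230898 to 44231264, which had the smallest unadjusted p of the 12. It had 35.2 and 36.6 RPKM with fenoterol + LPS, against 20.1 and 26.7 RPKM with LPS (log2 difference 0.55, SE 0.18, unadjusted p = 0.00638, adjusted p = 0.534). Next came the peak 15.5 kb downstream, at 44228097 to 44228816, with 16.2 and 33.0 RPKM with fenoterol + LPS, against 36.2 and 34.7 RPKM with LPS (log2 difference -0.53, SE 0.20, adjusted p = 0.632). The lower mean came mainly from mouse 1, and the other 7 libraries lay between 33.0 and 45.8 RPKM. With voom the adjusted p was 0.0573, and with voom and the mouse as a block it was 0.0366, the only call among the 12 in this comparison under any alternative run.

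**Figure D3:**
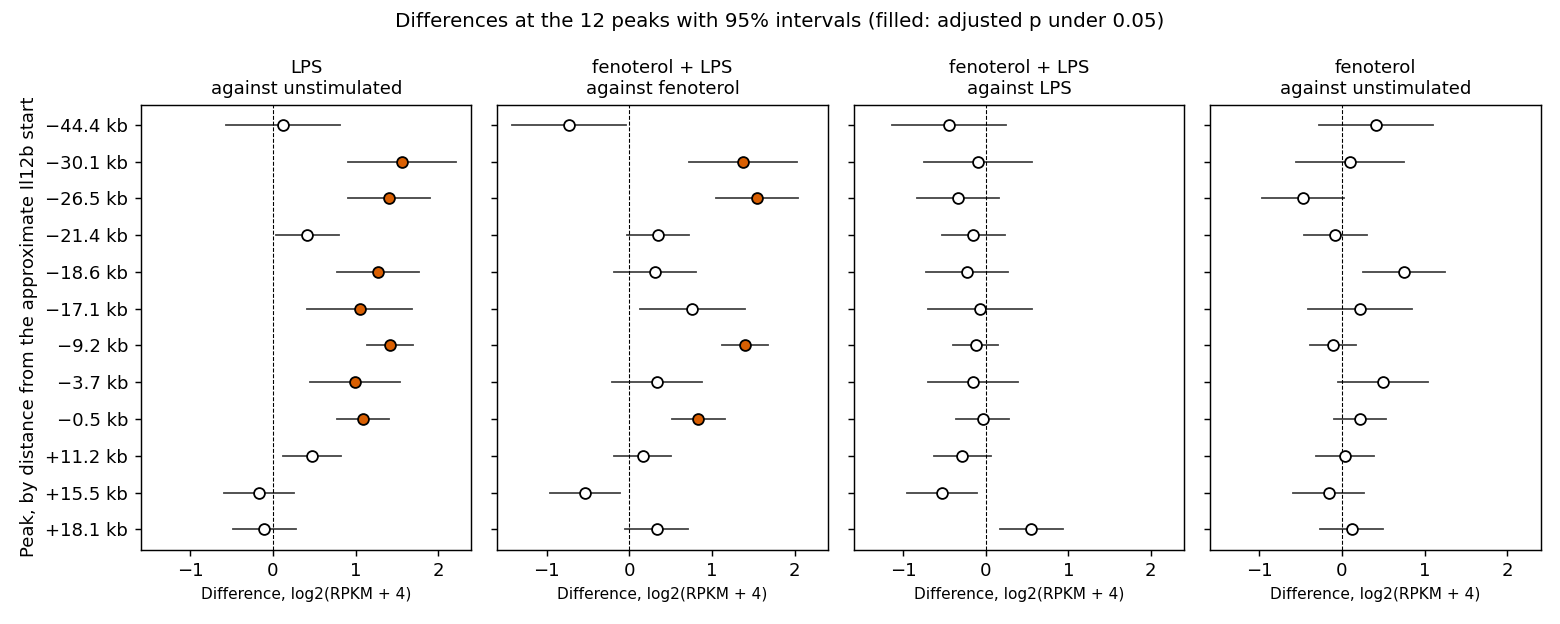
Log2(RPKM + 4) difference with its 95% interval (horizontal lines) at the 12 peaks in 4 comparisons, with peaks ordered by distance from the approximate Il12b start and filled points for adjusted p under 0.05. The 7 filled points for LPS against unstimulated and the 4 for fenoterol + LPS against fenoterol are at upstream peaks, and the fenoterol comparisons have 0.

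Fenoterol alone for 15 min gave no call at the 12 peaks. By limma-trend 0 rose and 0 fell against unstimulated cells, with 1 of the 12 at an unadjusted p under 0.05, where 5 of all tested peaks passed (0.00749%) and 4962 had an unadjusted p under 0.05. By voom 31 of all tested peaks (0.0464%) and 0 of the 12 passed. The peak 9.2 kb upstream had 30.9 and 28.9 RPKM with fenoterol, against 34.0 and 31.0 RPKM unstimulated, a log2 difference of -0.10 with a 95% interval of -0.38 to 0.17 (adjusted p = 0.887). The peak 0.5 kb upstream had 27.3 and 26.5 RPKM with fenoterol, against 19.3 and 26.4 RPKM unstimulated (log2 difference 0.22, interval -0.10 to 0.53, adjusted p = 0.788).

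The smallest unadjusted p of the 12 was at the peak 18.6 kb upstream, which had 15.2 and 20.4 RPKM with fenoterol, against 6.58 and 11.6 RPKM unstimulated, from 11 and 18 against 2 and 11 reads. Fenoterol was higher in both mice, and the log2 difference was 0.75 (SE 0.24, unadjusted p = 0.00495, adjusted p = 0.491; 0.92 by voom). The adjusted p was 0.0212 without the unstimulated library of mouse 2, a fit in which the shallow library of mouse 1 stands alone in its group and is assumed to vary like the others. At the peak 26.5 kb upstream the fenoterol values were 11.8 and 4.81 RPKM, against 12.6 and 12.2 RPKM unstimulated, so the lower mean came mainly from mouse 2 (log2 difference -0.47, SE 0.24, adjusted p = 0.698).

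Summed over the 12 peaks, the reads in CPM (counts scaled to the library's reads in peaks) were 190.1 and 222 with fenoterol + LPS and 217 and 242 with LPS, against 124 and 128 with fenoterol and 104 and 135 unstimulated. The 4 sums with LPS were above the 4 without it, and those of fenoterol + LPS overlapped those of LPS. Within each mouse the sum was lower with fenoterol + LPS than with LPS, a difference that was not tested. The division of these reads among the peaks differed as well. The peak 9.2 kb upstream held 34.1% and 32.4% of them with fenoterol + LPS and 32.9% and 32% with LPS, against 19.9% and 18.6% with fenoterol and 24.2% and 18.6% unstimulated. The peak 15.5 kb downstream went the other way, with 6.17% and 10.9% under fenoterol + LPS and 12.1% and 10.4% under LPS, against 21.9% and 19.6% with fenoterol and 22.8% and 25% unstimulated. The shares of a library add up to a fixed total, so a peak that does not change loses share when others rise. A lower share is thus no measure of lost accessibility. With LPS alone the log2 difference at this peak was -0.17 (limma-trend, adjusted p = 0.675). The peak 0.5 kb upstream held 14.2% to 17.2% in the libraries with LPS and 10.7% to 13.8% in those without. These ranges did not overlap, but the gap between 13.8% and 14.2% was small. The 13.8% rests on 54 reads, with an exact 95% Poisson interval of 40.6 to 70.5. Among the 12 peaks, such ranges overlapped only at those 18.6, 17.1 and 3.7 kb upstream, so the lack of overlap does not single out this peak.

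**Figure D4:**
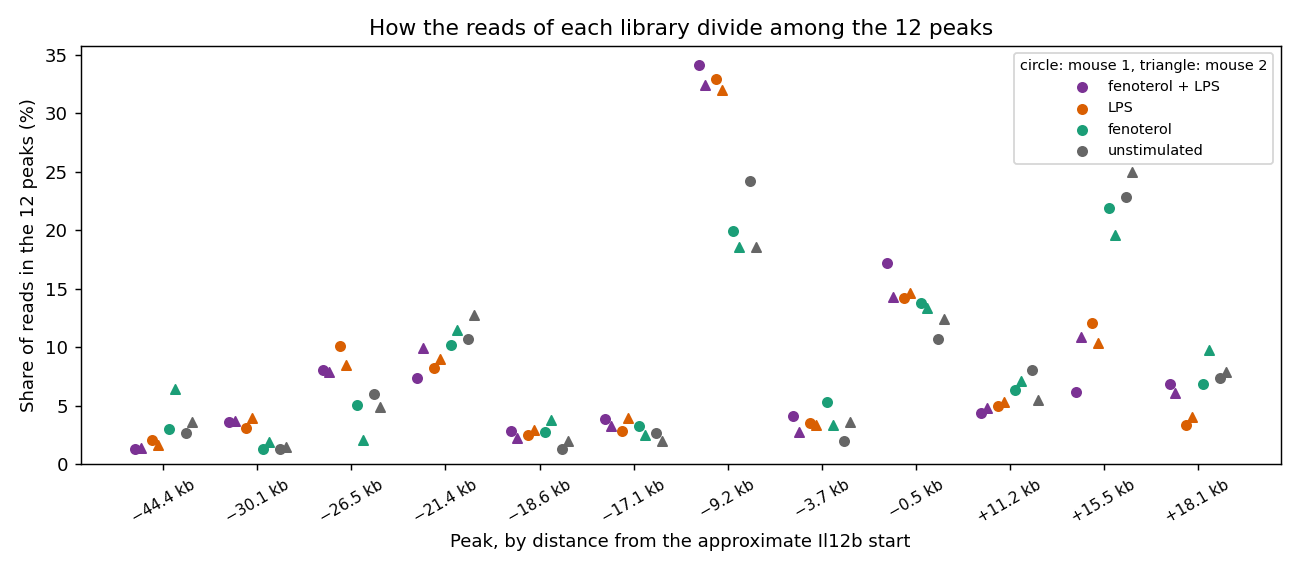
Share of each library's reads in the 12 peaks (percent, y axis) that falls in each peak (x axis, by distance from the approximate Il12b start), with 1 point per library. The peak 9.2 kb upstream holds 32% to 34.1% in the 4 libraries with LPS, against 18.6% to 24.2% in the 4 without.

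Equal spans of 70 kb on either side held fewer peaks. The upstream flank had 3 peaks, of which 0 rose with LPS alone, and the downstream flank had 6, of which 1 rose. With fenoterol present the counts were 0 of 3 and 1 of 6, and 0 fell in either flank in both comparisons. The median log2 difference with LPS alone was 0.52 in the upstream flank and -0.05 in the downstream flank. With fenoterol present these medians were -0.18 and 0.02. On the whole of chromosome 11, 274 of 4229 tested peaks rose and 162 fell with LPS alone. In fenoterol + LPS against fenoterol, 379 of them rose and 164 fell. The difference between the window and its flanks was not tested.

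The peaks elsewhere whose pattern over the 8 libraries was most like that of the peak 9.2 kb upstream were found by the mean absolute difference of centred log2 values. The closest, at 0.0561, was on chromosome 11 at 23654119 to 23654771, with 34.9 RPKM under fenoterol + LPS and 35.9 under LPS, against 9.98 with fenoterol and 11.8 unstimulated. The next, at 0.0631, was on chromosome 9 at 20833720 to 20834854, with 48.4 and 58.9 RPKM in the LPS groups in the same order, against 16.2 and 18.4 RPKM. The third, at 0.0633, was on chromosome 14 at 73262741 to 73263434, with 32.2 and 31.4 RPKM, against 9.80 and 10.1 RPKM. Within the Il12b window the most similar peak was the one 30.1 kb upstream, at 0.138, and 140 peaks outside the window were closer than that.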

How the data were processed

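ATAC-seq libraries of 8 macrophage cultures were compared. The authors deposited 1 RPKM value per peak and library; cutadapt, Bowtie2, MACS2, HOMER and build mm9 are named in the submitters' processing notes, without versions. No source used here gives the read filters, any Tn5 shift or whether libraries were pooled to call peaks. Multiplied by peak length, 100% of values lay within 0.01 of a whole number of the library's smallest step, so reads were recovered.

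Values were divided by median-ratio size factors (0.9401 to 1.037) and log2(value + 4) was taken. A filter at 9.62 RPKM on the mean of all 8 libraries removed the lowest 10% (7421 peaks). The peak 30.1 kb upstream (4.45 RPKM unstimulated, 5.05 with fenoterol) and that 17.1 kb upstream (6.32 and 8.05) passed it only through their LPS groups. With no filter, limma-trend still called both for LPS against unstimulated (adjusted p = 0.00281 and 0.0328). limma 3.58.1 in R 4.3.3 (limma-trend) was fitted to 66786 peaks with 4 group means over all 8 libraries, and 7 contrasts were adjusted by Benjamini-Hochberg, each over all tested peaks. There were 4 residual degrees of freedom, moderated with 16.4 from the spread shared by peaks (142 in voom), so p-values rest largely on the shared spread.

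The same mouse gave 1 library per group per the labels, which pairs the libraries; differences between the mice correlated at 0.0223 to 0.0713 over 6 pairs of groups. No pair was counted as 1 sample, following the labels. Chi-square per degree of freedom was 0.89 to 1.21 within groups and 0.97 to 3.56 between them. A value near 1 is what counting error alone gives, so this check cannot show that the libraries of a group are separate samples. By this measure, the spread behind the p-values held little variation between mice beyond counting error.

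Values per library were printed for peaks past the threshold in any contrast, the tallest, the nearest to the gene start and the smallest p in the fenoterol comparisons. Those at 44.4 kb upstream and 11.2 and 15.5 kb downstream were added after their values were seen. The peaks and the listed motifs were chosen with earlier results of these data known. Sequences came from RefSeq promoters on GRCm38.p6, with 1 entry for Il12b.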

Additional observations from a re-analysis of the deposited data

Results flagged for a closer look

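At 3 of the 12 peaks, effects under the 2 states of the other agent went in opposite directions in both mice, as was the case at 17.3% of the peaks tested; the interaction is the test of each difference, and none passed. At the peak 18.6 kb upstream, fenoterol + LPS was lower than LPS (23.4 and 22.1 against 23.7 and 31.0 RPKM). In mouse 1 these 2 were nearly equal, at a ratio of 0.987 from 21 reads with fenoterol + LPS and 19 with LPS. Fenoterol was higher than unstimulated there (15.2 and 20.4 against 6.58 and 11.6 RPKM). The interaction was -0.97 on the log2 scale (limma, unadjusted p = 0.00911, adjusted p = 0.681). At the peak 44.4 kb upstream, fenoterol + LPS was lower than LPS (6.999 and 8.494 against 12.5 and 11.3 RPKM) while fenoterol was higher than unstimulated (10.4 and 22.1 against 8.27 and 13.3 RPKM), with an interaction of -0.85 (adjusted p = 0.835). At the peak 18.1 kb downstream, fenoterol + LPS was higher than fenoterol (35.2 and 36.6 against 23.1 and 33.0 RPKM) while LPS was lower than unstimulated (20.1 and 26.7 against 22.4 and 28.2 RPKM), with an interaction of 0.43 (adjusted p = 0.86). The unstimulated values of mouse 1 at these peaks rest on 2, 4 and 11 reads, in the same order, and the part of that depth in the result was not tested.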

How the results depend on the processing

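Each of 7 counts and 26 single-peak results was recomputed under 18 alternatives: each library left out in turn, the mouse as a replicate block, voom without and with that block, pseudocounts of 20 and 0.8, removal of the lowest 25% or of no peak, unscaled or quantile-normalized values, and no mean trend. The peak 44.4 kb upstream was among the lowest 25% and has no value there. No single-peak result changed direction under these; 26 of their recomputed values lost the threshold and 15 gained it. For LPS against unstimulated, the count of 7 peaks ran from 3 to 8 with 1 library left out and from 6 to 7 otherwise. For fenoterol + LPS against fenoterol, the count of 4, all rises, was 7 by voom without and with the replicate block (5 rose, 2 fell) and 3 to 5 with 1 library left out. It held 1 fall after quantile normalization (4 rose), with mouse 2 left out of the fenoterol + LPS group (3 rose) and with mouse 1 left out of the unstimulated group (4 rose). For fenoterol + LPS against LPS, the count of 0 was 1 by voom with the block. For fenoterol against unstimulated, the count of 0 was 0 to 1 with 1 library left out. For LPS averaged over fenoterol, the count of 8, all rises, ran from 6 to 9. It held 1 fall by voom without and with the block (8 rose), with mouse 1 left out of the unstimulated group (8 rose) and with mouse 2 left out of the fenoterol + LPS group (7 rose). The mouse as a block in limma-trend changed no call. The calls at the peaks 26.5, 9.2 and 0.5 kb upstream for LPS without and with fenoterol were kept under all 18. The causes were not tested. The shallow unstimulated library held 2 to 4 reads at 5 of the 12 peaks.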
